A study of Mus musculus with 16 samples.

Results

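Ribosomal protein pseudogenes are copies, intact or decayed, of the genes that encode the proteins of the ribosome. This account covers the genes of the hippocampal count table whose symbol starts with Rpl or Rps and ends in ps, with or without a number, and whose counts summed over the 16 mice reached 50. The pattern matched 298 of the 54532 genes in the table, and 90 reached the minimum, 53 named after proteins of the large ribosomal subunit and 37 after proteins of the small subunit. Of the other 208 matching genes, 115 had no count in any mouse. The members were thus chosen by their symbol and their summed count over all mice, and the genotype did not enter the choice directly, but 23 of the 90 had fewer than 50 counts in the WT mice and passed only with the counts of the hTau.P301S mice. Just above the minimum stood Rpl36a-ps1 with 58 counts, Rps19-ps4 with 52 and Rpl19-ps3 with 51, and just under it Rpl27-ps1 with 48, Rpl18-ps1 with 41 and Rpsa-ps1 with 39.

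Poly(A)-selected RNA of the hippocampus had been sequenced from 16 mice in 4 groups of 4. WT mice were given water alone (WT) or nicotinamide riboside, a precursor of NAD+ (WT + NR), and mice carrying the hTau.P301S transgene were given water alone (hTau.P301S) or nicotinamide riboside (hTau.P301S + NR). By the labels, NR was given at 6 mM in drinking water for 3 months, from 12 to 15 months of age, and the transgene expresses human Tau with the P301S mutation from the Thy1 promoter, which drives expression mainly in neurons. The study compared the genotypes as a model of tauopathy and asked what NR changed in each.

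Most of these copies are processed pseudogenes. A messenger RNA is reverse transcribed and inserted elsewhere in the genome, so that the copy holds the exons joined together, without introns and usually without the promoter of its parent. Ribosomal protein genes are among the most strongly expressed genes of every cell, and they have left more such copies in mammalian genomes than almost any other gene family. Because a young copy is nearly identical to its parent, a short read from the messenger RNA can match both places equally well, and a read from a transcribed copy can likewise be counted for the parent.

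GENCODE's annotation of GRCm38 listed 80 of the 90 as processed pseudogenes, 6 as transcribed processed pseudogenes and 4 as protein coding (Rps12-ps3, Rpl9-ps6, Rpl10-ps3 and Rpl36a-ps1). A single exon was annotated for 88 of them. They lay on 20 chromosomes, 9 of them on the X chromosome, and were named after 43 parent genes, with 5 copies each of Rpl17, Rps12 and Rps15a and 4 each of Rpl10, Rpl21 and Rpsa. Another annotated gene overlapped 38 of them, in its introns alone for 35 and in an exon for 3 (Rpl19-ps11, Rps12-ps4 and Rpl19-ps1), and 52 stood clear of other genes. Whether the library kept the strand is not stated, so reads of a copy and of a gene around it on the other strand cannot be told apart.

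In sequence the members were close to their parents. Over the aligned bases, the median identity of the 89 that could be compared was 99.2%, 86 had at least 95% and 14 had no mismatch. The lowest identity was 87.5%, in Rpl36a-ps3. An open reading frame at least 90% as long as the parent's protein was present in 70 members. The matching genes under the minimum had a median identity of 94.9% (203 compared), and 90 of them kept such a reading frame. Among the members themselves, the 55 with 200 or more counts had a median identity of 99.5% and the 34 with fewer 98.6%. Members and the remaining copies were separated by counts, so these medians describe them and were not tested.

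The capacity of a read to tell a copy from its relatives was measured by cutting each member's transcript into every stretch of 100 bases and asking which stretches occur in no other annotated transcript. The median member had 39.7% of such stretches to itself, 16 members had none and 4 had only their own. Shorter stretches of 50 bases left 18.5% and longer ones of 150 bases 58.6%.

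Among the copies, 4 had levels in the 8 hTau.P301S mice that lay above those of all 8 WT mice (background 0.14% of 16425 genes tested). Of these, Rpl15-ps2 and Rpl15-ps3 reached the summed minimum only with the transgenic mice, so nothing is read from their place in this count. The sequences are given here first, because a read can be placed only where a copy differs from its parent and its other relatives. The copies and parents are GENCODE transcripts on GRCm38, capitals mark the bases at which copy and parent differ in the stretch shown, and substitutions are numbered from 1 at the first base of the parent's start codon, with the parent's base first.

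Rps26-ps1 (chr8:107439131-107439579, minus strand, a transcribed processed pseudogene inside an intron of Wwp2, a gene on the other strand) is a copy of Rps26, which encodes a small-subunit protein near the site where messenger RNA leaves the ribosome. Rps26 lies at chr10:128624534-128626747 on the minus strand. Over the first 300 coding bases, here at chr8:107439263-107439562 for the copy, they differ by C30T and G270A, and past the stop codon by G369A and T379C. The copy keeps an open reading frame of 115 of 115 codons.
Rps26: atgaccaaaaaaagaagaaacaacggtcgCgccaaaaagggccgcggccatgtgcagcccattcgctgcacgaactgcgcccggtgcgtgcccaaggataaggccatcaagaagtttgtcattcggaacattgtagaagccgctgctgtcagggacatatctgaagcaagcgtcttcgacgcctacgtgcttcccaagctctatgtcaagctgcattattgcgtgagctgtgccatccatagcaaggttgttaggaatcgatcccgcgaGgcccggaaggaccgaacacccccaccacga
Rps26-ps1: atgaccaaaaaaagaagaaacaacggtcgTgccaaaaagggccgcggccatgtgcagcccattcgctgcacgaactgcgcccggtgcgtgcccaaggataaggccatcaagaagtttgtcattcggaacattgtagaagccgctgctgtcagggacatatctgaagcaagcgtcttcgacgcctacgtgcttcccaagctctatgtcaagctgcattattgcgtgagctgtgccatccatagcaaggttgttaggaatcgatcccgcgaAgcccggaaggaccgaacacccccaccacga

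Rpl15-ps2 (chr9:72060937-72061549, plus strand, inside an intron of Tcf12, a gene on the other strand) is a copy of Rpl15, a large-subunit protein whose gene lies at chr14:18267823-18271391 on the minus strand. It differs by 8 substitutions (G15A, T81C, C104T, A156G, C322T, G323A, C354G and G605A) and its longest reading frame holds 186 of 204 codons. The stretch from coding base 71 to 370, at chr9:72061005-72061304, holds 6 of them. Rpl15-ps3 (chr9:22185607-22186221, minus strand) has no difference from Rpl15 over its 615 bases, so its sequence is not shown separately.
Rpl15: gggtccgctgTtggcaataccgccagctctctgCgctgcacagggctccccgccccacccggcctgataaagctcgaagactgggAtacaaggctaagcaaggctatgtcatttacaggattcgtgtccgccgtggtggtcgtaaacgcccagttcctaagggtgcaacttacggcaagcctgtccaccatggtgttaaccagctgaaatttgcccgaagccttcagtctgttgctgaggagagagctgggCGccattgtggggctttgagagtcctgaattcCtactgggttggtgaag
Rpl15-ps2: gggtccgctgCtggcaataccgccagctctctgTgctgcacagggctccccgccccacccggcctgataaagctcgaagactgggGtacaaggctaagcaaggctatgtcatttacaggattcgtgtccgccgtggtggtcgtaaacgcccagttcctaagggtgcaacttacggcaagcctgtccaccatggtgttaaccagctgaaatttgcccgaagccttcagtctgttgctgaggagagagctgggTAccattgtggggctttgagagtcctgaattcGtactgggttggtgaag

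Rpsa-ps10 (chr3:150072658-150073542, minus strand) is a copy of Rpsa, the small-subunit protein also known as the laminin receptor, whose gene lies at chr9:120127689-120132369 on the plus strand. It differs by 6 substitutions (C25A, T210C, C219T, C345G, C696T and G858A) and keeps a reading frame of 295 of 295 codons. Rpsa-ps2 (chr10:128776371-128777250, minus strand), a second copy of Rpsa, differs by 9 and shares T210C and C219T with Rpsa-ps10. Levels of Rpsa-ps2 overlapped between the genotypes. They lay below those of all WT mice once replicate 1 of hTau.P301S was left out. The stretch from coding base 196 to 355 is shown for the parent and both copies (chr3:150073188-150073347 and chr10:128776897-128777056), and in Rpsa the capitals mark every base at which either copy differs.
Rpsa: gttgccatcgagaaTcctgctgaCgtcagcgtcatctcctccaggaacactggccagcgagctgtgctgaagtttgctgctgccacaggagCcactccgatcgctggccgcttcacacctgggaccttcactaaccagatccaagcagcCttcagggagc
Rpsa-ps10: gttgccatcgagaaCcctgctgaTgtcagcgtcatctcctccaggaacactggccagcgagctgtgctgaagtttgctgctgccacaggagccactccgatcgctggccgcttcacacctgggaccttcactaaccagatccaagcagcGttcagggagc
Rpsa-ps2: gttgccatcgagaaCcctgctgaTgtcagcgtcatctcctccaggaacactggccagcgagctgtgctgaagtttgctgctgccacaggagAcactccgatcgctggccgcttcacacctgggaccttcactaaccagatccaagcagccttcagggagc

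Total counts per mouse ranged from 16490261 to 21915362, and between 86 and 90 members had a count in each mouse. Replicate 1 of hTau.P301S stood apart from the other 15 mice. There the members took 0.604% of all counts, against 0.0547% to 0.125% elsewhere, and the 79 listed ribosomal protein genes took 9.68%, against 1.05% to 2.45%. Mitochondrial genes took 14.4% of its counts (4.48% to 7.07% in the others) and 19467 genes had a count (at least 22199 in the others). This mouse was the highest for 85 of the 90 members and for 79 of 79 ribosomal protein genes. Each comparison that holds it is therefore given with and without it. Levels are given as CPM, counts scaled to the library total after its adjustment by TMM, edgeR's normalization between mice. Neuron markers (4 genes, summed) had 2370 to 5378 CPM in WT and 2383 to 5980 in hTau.P301S mice. Markers of hippocampal neurons (4 genes, summed) had 272 to 574 and 285 to 685. Both sets were present in every mouse. Astrocyte markers (3 genes) had 326 CPM in replicate 1 of hTau.P301S and 921 to 1514 in the other 15 mice, and their part in that mouse's values was not tested. In bulk tissue, fewer cells of a type and less RNA per cell cannot be told apart.

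**Figure D1:**
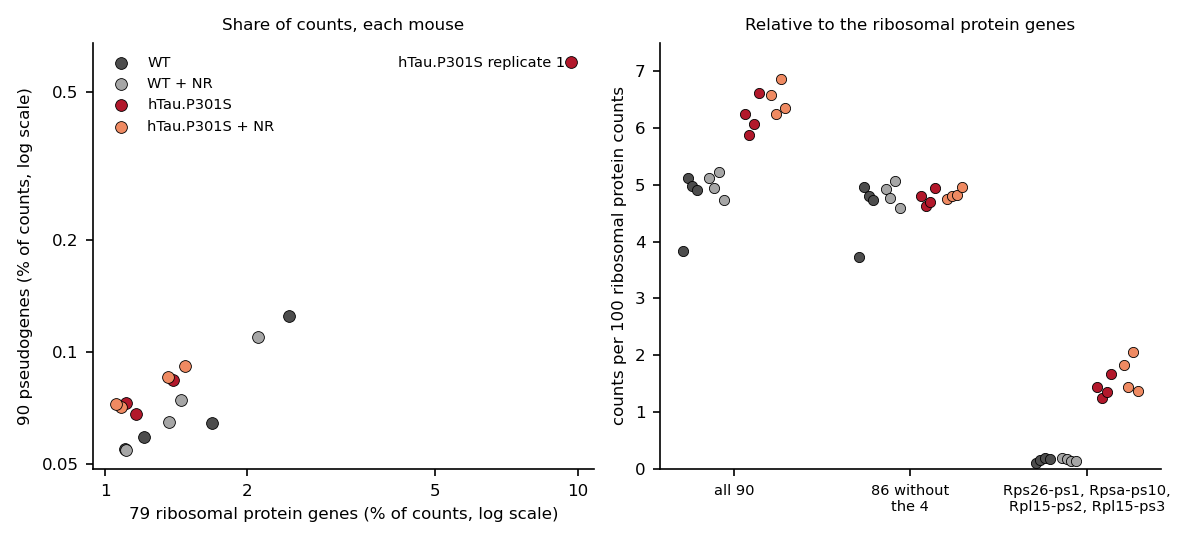
Left, share of each mouse's counts taken by the 90 pseudogenes (vertical, percent, log axis) against the share taken by 79 ribosomal protein genes (horizontal, percent, log axis), one point per mouse. The hTau.P301S mouse with 0.604% and 9.68% stands far from the other 15. Right, pseudogene counts per 100 counts of ribosomal protein genes in each mouse, for all 90, for 86 without the 4 with separated genotypes, and for those 4. The genotypes separate for all 90 and for the 4 (0.106 to 0.188 in WT against 1.26 to 2.06 in hTau.P301S mice) and overlap for the 86.

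The members' counts were also scaled to those of the ribosomal protein genes. Per 100 counts of ribosomal protein genes, all members together had 3.83 to 5.22 counts in the 8 WT mice (median 4.96) and 5.88 to 6.87 in the 8 hTau.P301S mice (median 6.29), and the genotypes did not overlap. Without the 4 members above, the values were 3.73 to 5.07 in WT (median 4.78) and 4.62 to 4.96 in hTau.P301S mice (median 4.80), and they overlapped. The 4 alone had 0.106 to 0.188 in WT (median 0.165) and 1.26 to 2.06 in hTau.P301S mice (median 1.44). Replicate 1 of hTau.P301S, for all its counts, lay among the other transgenic mice on this scale, with 6.24, 4.80 and 1.45. The 4 were set apart by their own levels, so the sums describe how much they weigh and were not tested.

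Counts were unevenly spread. The 90 members held 316446 counts in all, with a median of 312.5 per member and a range from 51 to 45718. The 5 largest held 53.7% and the 10 largest 73.9% of them. In order they were Rpl17-ps10, Rpsa-ps10, Rps12-ps3, Rps10-ps2, Rpl17-ps3, Rpl14-ps1, Rpl21-ps15, Rpl3-ps1, Rps26-ps1 and Rpl9-ps6. The lowest identity to the parent among the 10 was 98.99%, in Rps10-ps2, and Rps12-ps3 had no difference from Rps12 and no stretch of 100 bases of its own.

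Of these 10, Rpsa-ps10 and Rps26-ps1 were called between the genotypes, as described after them. The other 8 had log2 fold changes of 0.34 to 1.05 in hTau.P301S over WT mice with adjusted p-values of 0.712 or more by edgeR. Replicate 1 of hTau.P301S was the highest mouse for each of these 8. Without it, the median log2 fold change over the 52 members tested went from 0.69 to -0.28. Rpl17-ps10, a copy of the gene of a protein at the peptide exit tunnel, had 78.5 to 212 CPM in WT mice (median 108) and 57.4 to 135 in the hTau.P301S mice without replicate 1, where it had 1138. Rps12-ps3 had 28.7 to 116 in WT mice (median 47.4), 41.2 to 61.1 in the other 7 hTau.P301S mice and 1068 in replicate 1. The genotypes overlapped for both with that mouse set aside, and the transgenic mice spanned less than the WT mice.

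The genotypes were compared across all 16 mice, with NR as a second factor, to ask which copies differed with the transgene. Of the 90 members, 52 passed edgeR's filter on low counts and 3 were called, which took an adjusted p under 0.05 together with a log2 fold change of more than 0.5 in size. All 3 were higher in hTau.P301S mice (background 0.128% of the 16425 genes tested, 0.104% higher and 0.0244% lower). At an unadjusted p under 0.05, 5 members were higher and 0 lower (3.37% and 4.07% of all genes). The 3 called were Rps26-ps1 (log2 fold change 6.16, SE 0.64, adjusted p = 0.000148), Rpl15-ps2 (4.31, SE 0.62, adjusted p = 0.00386) and Rpsa-ps10 (3.66, SE 0.58, adjusted p = 0.0111), by edgeR's quasi-likelihood test with Benjamini-Hochberg adjustment. Rpl15-ps3 had 2.57 (SE 0.60) and an adjusted p of 0.208. Rpl15-ps2 and Rpl15-ps3 reached the summed minimum only with the transgenic mice in which they were high. Nothing is read from their place in the counts of members called or separated, here or below. The median log2 fold change was 0.69 over the 52 members, 0.63 over the 79 ribosomal protein genes, of which 0 were called (at an unadjusted p under 0.05, also 0), and 0.01 over all genes tested. The members' median was -0.28 once replicate 1 of hTau.P301S was left out.

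Rps26-ps1 changed the most. In CPM it had 1.48, 1.06, 0.686 and 0.974 in the WT mice and 1.85, 0.382, 1.09 and 0.959 in the WT + NR mice. The hTau.P301S mice had 366, 25.2, 32.7 and 45.6, and the hTau.P301S + NR mice 54.2, 40.6, 72.4 and 28.3. The lowest transgenic mouse thus lay above the highest WT mouse by a wide margin, also outside replicate 1. Its parent Rps26 had 117 to 272 in the WT mice (median 150) and 97.8 to 138 in the transgenic mice other than replicate 1, which had 1684. Wwp2, the gene around the copy, had a log2 fold change of 0.08 (adjusted p = 0.805).

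Rpsa-ps10 started from a higher level. It had 15.4, 34.0, 18.7 and 18.6 CPM in the WT mice and 24.2, 18.4, 27.0 and 19.1 in the WT + NR mice. The hTau.P301S mice had 1651, 116, 161 and 146, and the hTau.P301S + NR mice 138, 158, 145 and 144. Outside replicate 1 the 7 transgenic mice lay close together, all above the 8 WT mice. The parent Rpsa had 300 to 655 in the WT mice (median 398) and 220 to 328 in these 7 mice, with 2904 in replicate 1.

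The Rpl15 copies were far lower. Rpl15-ps2 had 0.164, 0.224, 0.211 and 0.108 CPM in the WT mice and 0.257, 0.109, 0.0987 and 0.113 in the WT + NR mice. The hTau.P301S mice had 17.6, 1.96, 2.23 and 1.39, and the hTau.P301S + NR mice 1.08, 2.92, 0.896 and 2.04. The genotypes did not overlap, although the 8 WT mice held only 24 counts of it between them and the 8 transgenic mice 447, so it passed the minimum of 50 only with the latter. Rpl15-ps3, the copy identical to Rpl15, had 0.219, 0.448, 0.422 and 0.108 in WT, 0.308, 0.109, 0.494 and 0.226 in WT + NR, 9.49, 0.900, 2.51 and 0.665 in hTau.P301S and 0.672, 1.25, 0.672 and 0.923 in hTau.P301S + NR mice. These levels also did not overlap between the genotypes, and it too passed the minimum only with the transgenic mice (44 counts in WT and 256 in transgenic mice). Rpl15 itself had 148 to 244 in the WT mice and 123 to 198 in the transgenic mice other than replicate 1, with 1028 there. Tcf12, around Rpl15-ps2, had a log2 fold change of -0.00 (adjusted p = 0.999).

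**Figure D2:**
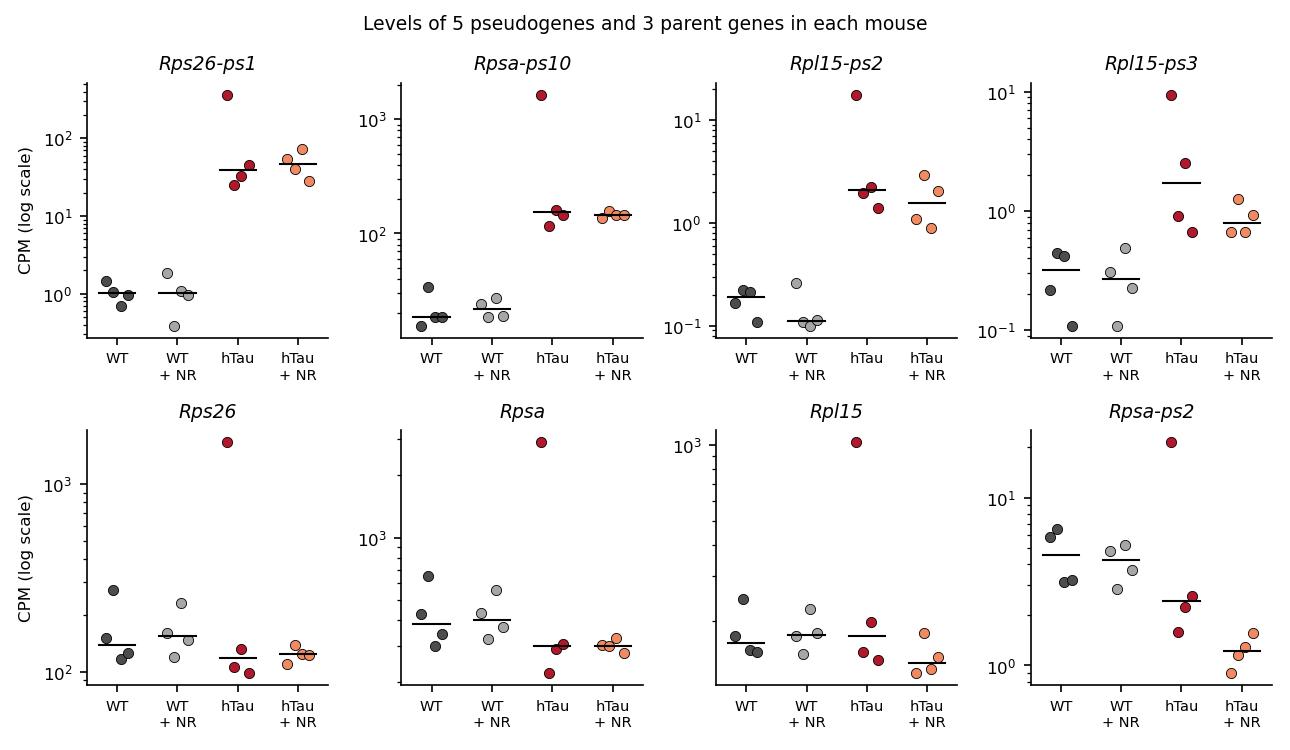
CPM (vertical, log axis) of 4 pseudogenes with separated genotypes, their parents Rps26, Rpsa and Rpl15, and Rpsa-ps2, one point per mouse in each of the 4 groups, with a bar at the group median ("hTau" stands for hTau.P301S). Rps26-ps1 runs from 0.382 to 1.85 in WT and from 25.2 to 366 in transgenic mice, while the parents overlap between the genotypes.

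Counted by overlap alone, 4 of the 52 members tested, and 4 of all 90, were higher in every hTau.P301S than in every WT mouse (Rpsa-ps10, Rps26-ps1, Rpl15-ps2 and Rpl15-ps3; background 0.14% of genes) and 0 were lower (background 0.0426%). Of these 4, Rpl15-ps2 and Rpl15-ps3 reached the summed minimum only with the transgenic mice in which they were high, so nothing is read from their place in this count, and Rpsa-ps10 and Rps26-ps1 reached it in each genotype. Of the 79 ribosomal protein genes 0 separated in either direction. Without replicate 1 of hTau.P301S, the same 4 remained higher (background 0.25%) and Rpsa-ps2 was lower (background 0.177%), as was 1 of the 79 ribosomal protein genes.

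Rpsa-ps2 and Rpl21-ps8 depended on that mouse. Rpsa-ps2 had 5.81, 6.50, 3.16 and 3.25 CPM in WT, 4.83, 2.84, 5.23 and 3.72 in WT + NR, 21.5, 1.59, 2.23 and 2.60 in hTau.P301S and 0.896, 1.15, 1.29 and 1.55 in hTau.P301S + NR mice. Apart from replicate 1, each transgenic mouse lay below each WT mouse. With all 16 mice its log2 fold change was -0.55 (adjusted p = 0.815), and without replicate 1 it was -1.46 (SE 0.24, adjusted p = 0.0101). Rpl21-ps8, in an intron of the myelin gene Mbp on the other strand, went from -0.34 (adjusted p = 0.924) to -1.54 (SE 0.27, adjusted p = 0.0201), and its parent Rpl21 without that mouse had -1.11 (adjusted p = 0.0484). Without this mouse 5 of 52 members were called (background 0.319%), the 3 named above with log2 fold changes of 5.28, 3.43 and 2.71, and these 2. As above, nothing is read from the place of Rpl15-ps2 in this count.

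Markers of other cell types differed between mice, and the genotypes overlapped for each of the lists given here. Summed over Hbb-bs, Hba-a1 and Alas2, markers of blood cells had 6.21 to 80.6 CPM in the WT mice, 1.15 to 6.54 in the hTau.P301S mice other than replicate 1, and 20.1 in replicate 1, and Alas2 was at 0 in at least 1 mouse. Endothelial markers (3 genes, 0 of them at 0) had 93.5 to 196 in WT and 56.2 to 121 in transgenic mice, and choroid plexus markers (3 genes, 0 of them at 0) had 18.9 to 9538 and 17.7 to 4619. The median of the blood markers was 12.6 in WT and 2.23 in transgenic mice. Medians went the other way for markers of oligodendrocytes (5341 and 6156, 3 genes) and of microglia (196 and 252, 3 genes). Markers of striatal neurons (3 genes) had 11.9 to 631 CPM in WT and 13.7 to 239 in transgenic mice. The part of these cells in the differences was not tested.

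The genotypes were also compared within each treatment. For hTau.P301S against WT without NR, edgeR tested 57 members and called 0 (background 0.00611%), with a smallest adjusted p of 0.198. An unadjusted p under 0.05 was reached by 6, all higher (3.41% of all genes were higher and 3.73% lower at that limit). DESeq2 called 1, and its share over all genes is not given here. Members had a median log2 fold change of 1.51 and the ribosomal protein genes one of 1.62, and 56 of 57 members were positive (52.3% of all genes). Without replicate 1 of hTau.P301S, 3 of 59 were called (background 0.0832%), namely Rps26-ps1 (5.03, SE 0.30, adjusted p = 0.000411), Rpsa-ps10 (2.69, SE 0.28, adjusted p = 0.0143) and Rpl15-ps2 (3.34, SE 0.42, adjusted p = 0.0360), and the median was -0.20. Among the 57 tested, Rpsa-ps10, Rps26-ps1, Rpl15-ps2 and Rpl15-ps3 were higher without overlap between the groups, with that mouse (background 3.55%) and without it (background 7.96%). With it 0 were lower (background 2.69%), and without it Rpsa-ps2 and Rpl10-ps6, which was noticed for this after its values were seen, were lower (background 5.18%). Without that mouse, the members' shares higher and lower both lay below those of all genes. Rpl15-ps2 and Rpl15-ps3 passed the summed minimum only with the transgenic mice, so nothing is read from their place in these counts.

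The NR-treated mice, which share no mouse with that comparison, gave 2 calls among 52 members, both higher (background 0.054%, with 0.048% higher and 0.006% lower), Rpsa-ps10 (log2 fold change 2.72, SE 0.14, adjusted p = 7.71e-05) and Rps26-ps1 (5.49, SE 0.44, adjusted p = 0.00139). Rpl15-ps2 had 3.52 (SE 0.54, adjusted p = 0.105), Rpl15-ps3 1.59 (SE 0.47, adjusted p = 0.757), and Rpl21-ps8 and Rpsa-ps2 had -1.59 and -1.77 (adjusted p = 0.109 each). DESeq2 called 6 members, but its share over all genes is not given here, so nothing is read from that count. At an unadjusted p under 0.05, 5 members were higher and 10 lower (2.42% and 3.67% of all genes). Without overlap between the groups, 5 members were higher (the 4 above and Rps15a-ps7, background 1.62%) and 5 lower (Rpl31-ps8, Rpl23a-ps3, Rpl21-ps8, Rps2-ps10 and Rpsa-ps2, background 2.11%). As above, nothing is read from the places of Rpl15-ps2 and Rpl15-ps3 in this count. The median over the members was -0.27, with 40 of 52 negative (47% of all genes were positive), and over the ribosomal protein genes -0.33, with 70 of 79 negative.

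NR was compared with water within each genotype. In WT mice, 0 of 51 members were called (background 0%) and 0 reached an unadjusted p under 0.05 by edgeR (0.371% of all genes were higher and 0.419% lower at that limit). DESeq2 called 0, no tested member separated the groups (background 0.365% higher and 0.389% lower), and the members had a median log2 fold change of 0.03. In hTau.P301S mice, 0 of 54 were called (background 0.0061%), DESeq2 called 0, and 19 reached an unadjusted p under 0.05, all lower with NR (5.86% of all genes were higher and 7.01% lower). All 54 log2 fold changes were negative (47.6% of all genes were positive) with a median of -1.85, and without replicate 1, which had no NR, 0 of 55 were called (background 0.197%) and 37 were negative, with a median of -0.09. The difference between the NR effects of the genotypes was called for 0 of 66 members (background 0%) with edgeR and 0 with DESeq2, 13 had an unadjusted p under 0.05, all lower (3.29% of all genes were higher and 4.63% lower), and its median went from -1.77 to -0.08 without that mouse. For the 3 members called by genotype, this difference without that mouse was 0.47 (SE 0.56) in Rps26-ps1, 0.03 (SE 0.31) in Rpsa-ps10 and 0.19 (SE 0.67) in Rpl15-ps2, with adjusted p-values of 0.876, 0.987 and 0.965. Of the 54 tested in transgenic mice, Rpsa-ps2 was lower with NR without overlap (background 5.54%) and 0 were higher (background 6.33%). Without replicate 1 of hTau.P301S this was the same (background 8.86% and 8.22%). These shares of the members lay below those of all genes.

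Each copy was set beside its parent. Over all 16 mice, 45 of 52 members had a log2 fold change within 1 of the parent's, with a median difference of 0.05. The 7 beyond 1 were Rpsa-ps10, Rps26-ps1, Rpl15-ps2, Rpl15-ps3, Rpl30-ps10, Rps18-ps3 and Rpl21-ps10, and without replicate 1 of hTau.P301S 47 of 52 lay within 1 and Rpl30-ps10 and Rpl21-ps10 left the list. A pair of unrelated genes that change little would also lie within 1, so these counts describe the size of the differences and do not show that copies followed their parents. The parents of the leading copies had log2 fold changes of 0.60 (Rps26), 0.33 (Rpsa) and 0.38 (Rpl15), and -0.49, -0.57 and -0.25 without that mouse, none of them called. A read that fits both places could be counted at either, so a copy and its parent are not independent measurements.

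**Figure D3:**
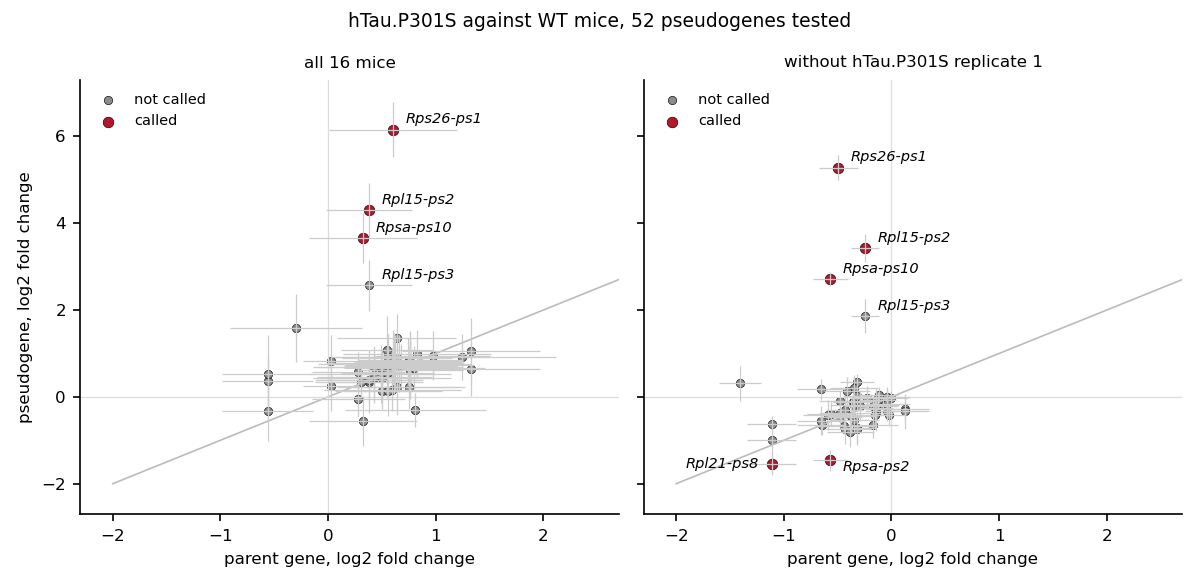
Log2 fold change of hTau.P301S over WT mice for 52 pseudogenes (vertical) against that of the parent gene (horizontal), with bars for the standard error of each, over all 16 mice (left) and without hTau.P301S replicate 1 (right). The grey line marks equal change. Of the 52 points, 45 (left) and 47 (right) lie within 1 of it, and Rps26-ps1, Rpl15-ps2 and Rpsa-ps10 stand above it in both panels.

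In replicate 1 of hTau.P301S, copy and parent were high together. There the members had a median of 10.4 times and their parents a median of 10.7 times the median of the other 15 mice. The log2 ratio of member to parent lay above the median of the other mice in 42 of 90 members, with a median difference of -0.05.

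The ratio of copy to parent was then compared within each mouse, on a log2 scale with 0.5 added to each count. The genotypes did not overlap for 5 members with a higher ratio in hTau.P301S mice (background 2.84% of the 176 pseudogenes named -ps that have a parent gene in the table and reach 50 counts, which include the 90) and 1 with a lower ratio (background 0.568%), and the counts were the same without replicate 1. The remaining 86 genes of that background held 0 in either direction. Of the 5, Rpl15-ps2 and Rpl15-ps3 reached the summed minimum only with the transgenic mice in which they were high. Nothing is read from their place in these counts. The median difference between genotypes over the 90 was -0.04, and 80 lay within 1.

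Rps26-ps1 had log2 ratios to Rps26 of -8.19 to -6.42 in WT mice (median -7.29) and -2.20 to -0.79 in hTau.P301S mice (median -1.88). Rpsa-ps10 had -4.79 to -4.00 (median -4.23) and -1.18 to -0.81 (median -0.93). Rpl15-ps2 had -10.81 to -9.26 and -7.11 to -5.86, and Rpl15-ps3 -10.12 to -8.41 and -7.66 to -6.29. The fifth was Rps2-ps13, named for this pattern after its values were seen, with -5.14 to -4.20 and -4.15 to -2.87, where the gap between the genotypes was small. Rpsa-ps2 had the lower ratio, with -6.82 to -6.19 in WT and -8.36 to -6.85 in hTau.P301S mice, and its gap was small too.

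Per base of gene length, the level of a copy was a median of 2.92% of its parent's over the 90 members. It was under 1% for 28 and under 10% for 57, and above 100% for 6. The median was 2.16% for the copies of large-subunit genes and 3.12% for those of small-subunit genes. Lengths are those deposited with the counts, whose definition is not stated.

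Rps10-ps2 had the highest ratio, with a median of 12325% of Rps10 per base of length (6301% to 82311% over the 16 mice). It had 43.5 to 117 CPM in WT mice and 50.2 to 68.8 in transgenic mice other than replicate 1, which had 800.3, while Rps10, the gene of a small-subunit protein, had 1.27 to 4.53 over all 16 mice. The copy shares 73.8% of its stretches of 100 bases with Rps10. Next came Rpl21-ps15 (737%), Rps10-ps1 (614%), Rpl17-ps10 (427%) and Rpl17-ps3 (247%). For each of these 5, the gene named as the parent had less per base than its copy in the median mouse.

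The lowest ratios belonged to Rpl19-ps3 (0.0136%), Rps2-ps6 (0.11%), Rpl19-ps1 (0.15%), Rps6-ps1 (0.16%) and Rpsa-ps12 (0.18%), each of which had mice without a count. These had 51 to 87 counts in all, so counting error is large for them. Rps26-ps1 ran from 1.10% to 199% of Rps26 over the 16 mice (median 39.4%) and Rpsa-ps10 from 12.9% to 204% of Rpsa (median 90.3%).

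**Figure D4:**
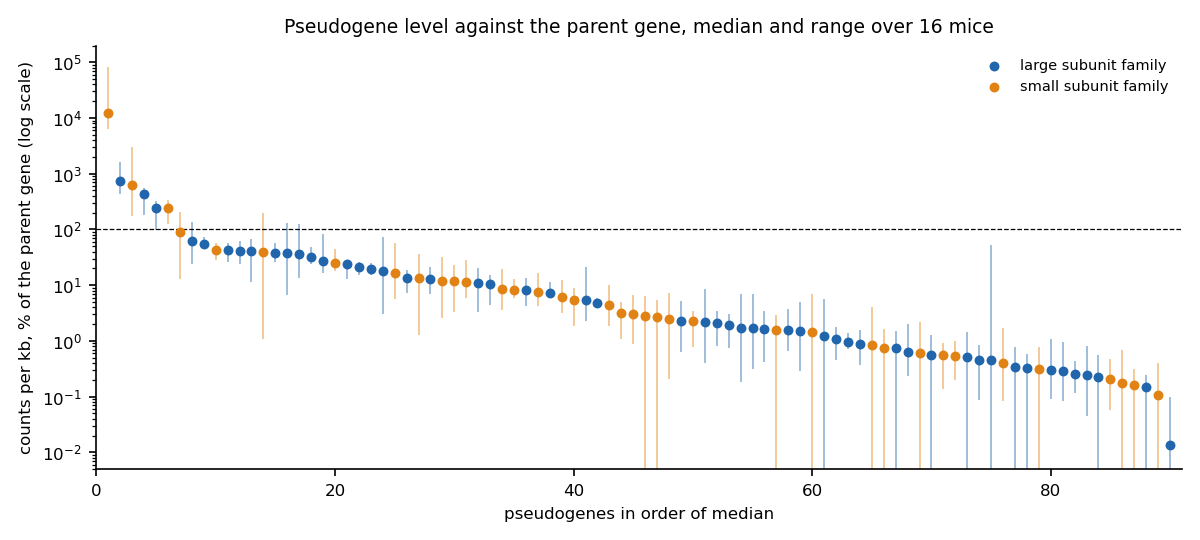
Level of each of the 90 pseudogenes per base of length as a percent of its parent (vertical, log axis), ranked, with points at the median and lines over the range of the 16 mice. Lines that reach the bottom edge include mice without a count, and the dashed line marks 100%. The medians run from 0.0136% in Rpl19-ps3 to 12325% in Rps10-ps2, and Rps26-ps1 and Rpsa-ps10 have wide ranges.

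The counts were also summed over a copy and every gene of the count table that shares a stretch of 100 bases with it, in an addition made after the data were seen. Genes absent from the count table are left out, among them AC122453.1 (21.9% of the stretches of Rpsa-ps10) and Gm49594 (80.6% of those of Rpl15-ps3). For Rps26-ps1 this sum over 5 genes, the copy and the protein-coding Med21 among them, was 131 to 293 CPM in WT mice (median 164) and 143 to 212 in hTau.P301S mice without replicate 1, which had 2099. The genotypes overlapped, and the copy's share of the sum had a median of 0.559% in WT and 19.7% in hTau.P301S mice. For Rpsa-ps10 the sum over 8 genes was 322 to 696 in WT mice. In transgenic mice without replicate 1 it was 339 to 475, also overlapping. The copy's median share was 5.01% in WT and 34.2% in hTau.P301S mice. Most of each sum came from genes other than the copy, so the overlap does not show that the total was unchanged.

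The sums for the Rpl15 copies overlapped between the genotypes too. Each of these copies was so small a part of its sum that this overlap says nothing about the copy. The sum over Rpl15-ps2 and the genes sharing stretches with it, 12 genes together, was 150 to 248 in WT mice and 137 to 223 in transgenic mice without replicate 1. The copy's median share was 0.0815% and 1.08%. For Rpl15-ps3 the median share was 0.149% and 0.554%, and for Rpsa-ps2 it was 0.941% and 0.418%. Rps10-ps2 held 91.3% and 93.4% of the sum over its 4 genes.

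**Figure D5:**
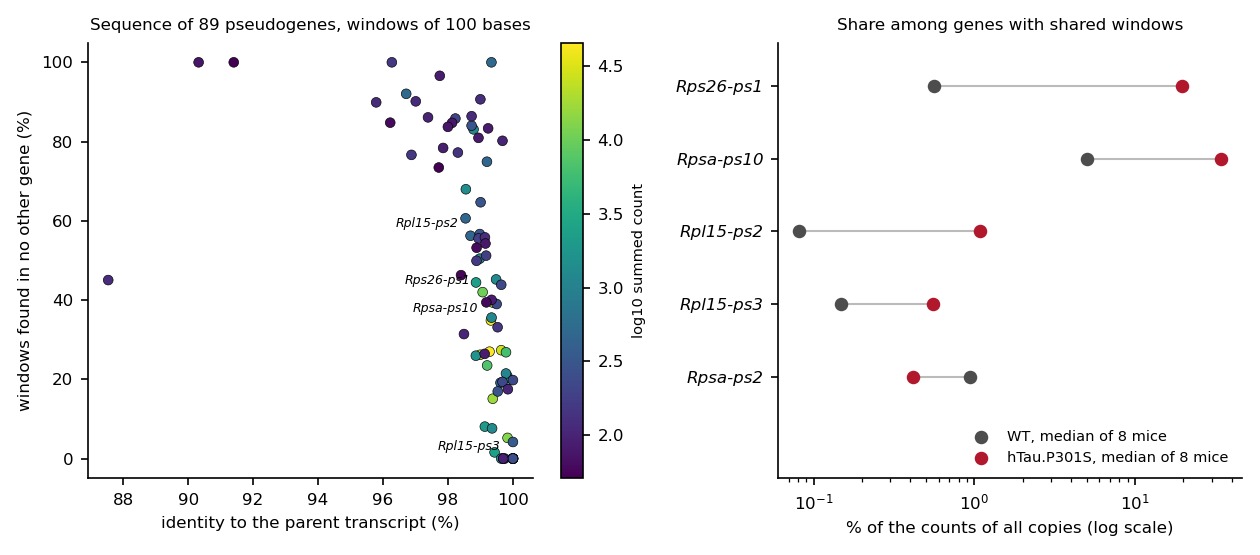
Left, share of a pseudogene's stretches of 100 bases that occur in no other annotated transcript (percent) against its identity to the parent (percent) for 89 members, coloured by log10 of the summed count. Right, median share of a member's counts in the sum over it and all genes of the count table sharing a stretch with it, in the 8 WT and the 8 hTau.P301S mice (horizontal, percent, log axis). Rps26-ps1 goes from 0.559% in WT (grey) to 19.7% in hTau.P301S mice (red) and Rpsa-ps10 from 5.01% to 34.2%, while Rpsa-ps2 goes the other way.

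The leading copies differed in how far reads could tell them from their relatives. Of the stretches of 100 bases in Rps26-ps1, 42% occurred in no other transcript, 40% in Rps26, 31.1% in the pseudogene Gm7392 and 30.9% in Med21, a protein-coding gene whose log2 fold change was 0.31 (adjusted p = 0.775). Rpsa-ps10 had 34.9% of its own, 53.9% shared with Rpsa and 37.5% shared with Rpsa-ps2. Rpl15-ps2 had 56.2% of its own and 42.2% in Rpl15.

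All of the 516 stretches of Rpl15-ps3 occur in Rpl15, 98.6% in the pseudogene Gm4294 and 71.1% in Gm10020, so no read of that length can be placed there alone. Gm10020, a processed pseudogene outside the name pattern, is given because it shares 33.3% of the stretches of Rpl15-ps2 and separated the genotypes too. It had a median of 0.155 CPM in WT and 9.59 in hTau.P301S mice, with a log2 fold change of 6.41 (SE 0.63, adjusted p = 7.75e-05). Gm4294 had 1.59 (SE 0.49, adjusted p = 0.431). A read from a shared stretch could be counted for Gm10020 or for either copy, so their differences may not be separate measurements.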

How the data were processed

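Poly(A)-selected hippocampal RNA of 16 mice, 4 in each of 4 groups, was analysed. Reads were trimmed and mapped by the authors to mm10 (STAR), and gene counts came from RSEM. The deposited counts are raw whole numbers, not normalized. How reads that fit several genes were shared, the read length and the strand setting are not given in the sources used here. The deposited table also lists a length for each gene, another value whose definition is not stated. Every count column matched 1 mouse (0 did not). Age and length of treatment follow the labels, and the paper states them differently.

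Each comparison was fitted on all genes with edgeR 4.0.16 in R 4.3.3 (default filter, TMM normalization, quasi-likelihood test, Benjamini-Hochberg adjustment), using the 8 mice of the groups compared, or 16 for the genotype and its interaction with NR. Called genes had an adjusted p under 0.05 with a log2 fold change of more than 0.5 in size. CPM are counts scaled to the library total after its adjustment by the TMM factor of each mouse. In replicate 1 of hTau.P301S this adjustment raised the CPM above the plain share of counts. There Rpl26 had 24128 of 17096764 counts and is given as 2062 CPM. Total counts were 16490261 to 21915362 per mouse, so levels under 1 CPM rest on few counts. Nothing says whether mice were related, so p-values measure the spread between these mice. Sequences were compared with Biopython 1.88 in Python 3.11.15 on GENCODE M21 transcripts of GRCm38 (match 2, mismatch -3, gap -5 and -2). 1 member, Rpl13-ps1, aligned over too few bases to be compared. The scripts were tested on simulated data.

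The members and lists were chosen with earlier results of these data known. Named members were those called, those whose genotypes do not overlap, the 10 with most counts, the 5 highest and 5 lowest ratios to the parent and the 3 on each side of the minimum. Other members named, among them those separated only without hTau.P301S replicate 1, were picked after their values were seen. Alternatives were DESeq2 1.42.0, RLE scaling, filters, a replicate block, omitted mitochondrial genes, pseudocounts of 1 and 5 and each mouse left out. DESeq2 without hTau.P301S replicate 1 and sums over related copies were added after the data were seen.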

Additional observations from a re-analysis of the deposited data

Results flagged for a closer look

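In a group of 4 mice, a mouse is listed here where its gap to the nearest other mouse is large against the range of the group (Dixon's test at 95%). Of 80 groups tested, 23 gave such a mouse, 16 of them replicate 1 of hTau.P301S. For independent groups of normally spread values, chance alone would give about 1 in 20. These groups are quantities of the same mice, many of which were high together in that mouse. The 23 are therefore not set against that rate. In replicate 1 of hTau.P301S the members took 0.604% and the ribosomal protein genes 9.68% of counts. Its CPM stood apart for Rpl17-ps10 (1138), Rpl17-ps3 (643), Rpl21-ps15 (380.1), Rpl14-ps1 (304), Rpl3-ps1 (186), Rpl9-ps6 (183), Rpl15-ps2 (17.6) and Rpl19-ps1 (2.65) among the copies of large-subunit genes. Among the copies of small-subunit genes it stood apart for Rpsa-ps10 (1651), Rps12-ps3 (1068), Rps10-ps2 (800.3), Rps26-ps1 (366), Rps10-ps1 (29.1) and Rps6-ps1 (1.79).

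Replicate 2 of WT stood above its group in the members' share of counts (0.125%), in Rps12-ps3 (116 CPM) and in Rps10-ps2 (117). Replicate 1 of WT had 0.493 CPM of Rpsa-ps12 and replicate 4 of hTau.P301S + NR had 0.0486. Replicate 1 of WT + NR had 0.257 of Rpl15-ps2 and 0 of Rpl19-ps1. These last values rest on few counts.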

How the results depend on the processing

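For hTau.P301S against WT without NR, no member was called by edgeR (6 at an unadjusted p under 0.05). DESeq2 called 1, no filter on low counts 1, all 4 groups in one fit 3, and leaving out each mouse in turn gave 0 to 3, the 3 without hTau.P301S replicate 1. For the NR-treated mice, where 2 were called, DESeq2 called 6, a minimum of 10 counts in every mouse 1, one fit of all groups 1 (Rpsa-ps10 lost its call at a log2 fold change of 2.72) and leaving out a mouse 2 in each case. Across all 16 mice, where 3 were called, the minimum of 10 counts gave 1 and leaving out a mouse 3 to 5. DESeq2 without hTau.P301S replicate 1, chosen after seeing the data, gave 8. Except for edgeR without that mouse, the shares of all genes called under these alternatives are not given. Nothing is therefore read from how these counts of members differ. Between hTau.P301S and WT, Rpl21-ps8 (0.87) had -0.28 under the replicate block and -1.48 without hTau.P301S replicate 1 (-1.48 to 1.23 over the mice left out), and Rpsa-ps2 (0.59) had -0.25 and -1.13 (-1.13 to 0.88). The causes were not tested. The counts of 0 calls for NR in either genotype and for the interaction held under each alternative, and the members whose genotypes do not overlap numbered 4 to 5, and 6 to 7 by ratio to the parent, under each. A summed minimum of 20 or 200 would give 114 or 55 members. Same-numbered mice deviated together in no regular way (r from -0.537 to 0.287), so they were not treated as pairs. With 4 mice a group, this does not exclude that same-numbered mice were related. The replicate block moved no count of calls by over 1.5 times. DESeq2 gave no p for Rpsa-ps10, Rps26-ps1 and Rpl15-ps2 in hTau.P301S against WT.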

Other observations

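A copy of Rpl26 outside the name pattern stood high in 2 mice, and Rpl26 itself was low in 1 of them. In replicate 1 of WT + NR, Rpl26, which encodes a large-subunit protein at the exit of the peptide tunnel, had 44 counts (2.26 CPM), while the other 15 mice had 153 to 2062 CPM, the highest in hTau.P301S replicate 1. In the same mouse Gm15772, a processed pseudogene at chr5:3236431-3236868 that shares 41% of its stretches of 100 bases with Rpl26, had 4210 counts (216 CPM). Replicate 3 of WT + NR had 3889 counts of it (192 CPM) with Rpl26 at 153 CPM, replicate 1 of hTau.P301S had 93.6 CPM, and the remaining mice had 7.20 to 17.98 CPM. The sum of both was 218 CPM in replicate 1 of WT + NR, 345 in replicate 3 and 160 to 373 in the other mice apart from hTau.P301S replicate 1. Rpl26-ps6, the member named after this parent, had 0 to 11 counts per mouse. These values were noticed in the data and were not tested.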
